A study of Homo sapiens with 6 samples.

Results

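The annexins described here are the 8 family members ANXA1, ANXA2, ANXA3, ANXA4, ANXA5, ANXA6, ANXA7 and ANXA11, taken by symbol from a table of 32357 genes, and all 8 are in it. The family was chosen by the measured values of ANXA5 in these same libraries, which were low with hairpin 1 and not with hairpin 3. The values of ANXA5 with either hairpin are therefore given as a description, with no test, while no value of the other 7 annexins enters the rule. RNA was measured in 2 human clear cell renal cell carcinoma lines, A-498 and 786-O, both of which lack a working VHL tumour suppressor. Cells of each line carried 1 of 3 retroviral short hairpin constructs: shZNF395-1 (hairpin 1), shZNF395-3 (hairpin 3) or the non-targeting shNTC (control). All of them, controls included, had been transduced with virus packaged in HEK293T, an embryonic kidney line often used to make virus, and then kept under puromycin. ZNF395 is a zinc finger DNA-binding protein, and the study asked what changes when it is knocked down. There are 6 libraries, 1 for each line and construct, so hairpins were compared with the 2 lines as replicates and no spread between repeat cultures was measured.

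Annexins are cytosolic proteins that bind acidic phospholipids, above all phosphatidylserine, when calcium rises, through a conserved core of repeats. Their N-terminal tails differ and give each member its own partners, such as S100 proteins, and its own sites of action in membrane repair, vesicle traffic, coagulation and inflammation. In epithelia, those of the kidney tubule included, several are abundant, and tumours often express them at other levels than the tissue they come from.

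Library totals ran from 77534125 to 99147218 counts, and ZNF395 stood at 13.5 to 24.7 CPM (counts scaled to a common library size) in the 4 hairpin libraries, against 67.9 and 96.3 CPM in the controls of A-498 and 786-O. Hairpins 1 and 3 left 21.4% and 21.0% of the control level in A-498, but 25.6% and 14.0% in 786-O. The part of this unequal knockdown in differences between the hairpins was not tested. The tubule factor PAX8 was at 157 to 256 CPM in all 6 libraries and the keratin KRT8 at 589 to 1330 CPM, while the carcinoma markers CA9 and NDUFA4L2 stayed near 0, at no more than 1.68 and 1.16 CPM. Endothelial markers summed to at most 2.23 CPM and immune markers to at most 0.899 CPM in any library. Fibroblast markers summed to 19.5 to 41.3 CPM in A-498 and 6.80 to 9.41 CPM in 786-O, with COL1A1 at 1.51 to 40.8 CPM and COL1A2 and DCN under 0.05 CPM, and their part in the results between the lines was not tested.

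The promoters of the 3 annexins that the hairpin results turn on, ANXA2, ANXA4 and ANXA5, are printed as the 250 bases before the start site, from RefSeq (GRCh38.p14), 5′ to 3′ on the gene's strand. They are shown because ZNF395 has been described to bind GCCGGCG in the Huntington's disease gene promoter. Capitals mark GCCGGCG, the GC box GGGCGG and the TATA motif TATAAA.
ANXA5, chr4:121696981-121697230, minus strand: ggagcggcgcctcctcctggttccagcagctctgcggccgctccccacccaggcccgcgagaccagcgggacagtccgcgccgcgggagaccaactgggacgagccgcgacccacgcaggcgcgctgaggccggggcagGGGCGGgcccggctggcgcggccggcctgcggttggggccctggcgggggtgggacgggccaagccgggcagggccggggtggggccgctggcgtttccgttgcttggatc
ANXA4, chr2:69741884-69742133, plus strand: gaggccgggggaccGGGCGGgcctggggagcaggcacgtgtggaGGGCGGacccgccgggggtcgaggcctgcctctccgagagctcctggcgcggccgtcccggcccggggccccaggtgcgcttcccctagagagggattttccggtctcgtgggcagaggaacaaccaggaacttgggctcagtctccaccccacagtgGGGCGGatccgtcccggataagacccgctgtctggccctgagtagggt
ANXA2, chr15:60397987-60398236, minus strand: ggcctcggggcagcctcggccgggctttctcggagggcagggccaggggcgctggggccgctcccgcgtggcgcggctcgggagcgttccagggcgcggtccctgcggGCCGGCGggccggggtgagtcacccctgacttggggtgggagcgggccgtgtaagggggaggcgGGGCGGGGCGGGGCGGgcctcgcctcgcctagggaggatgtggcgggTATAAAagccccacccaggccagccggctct
Both strands were searched in all 8 promoters for these 3 motifs and for CCAAT. The motif GCCGGCG was found in 1 of the 8, ANXA2, where its first base lies at -142 from the start, against 8.88% of 35116 promoters of the same length. GGGCGG was found in 4 of the 8 (ANXA2, ANXA4, ANXA5 and ANXA7), against 42.6% of all promoters. In ANXA2 its 3 copies, beginning at -78, -73 and -68, overlap each other. CCAAT was found in 3 of the 8 (ANXA1, ANXA7 and ANXA11), against 32% of all promoters, and TATAAA in 2 of the 8 (ANXA1 and ANXA2, both at -31), against 10.7%. The GC content was 78.8% in ANXA5, 71.6% in ANXA4 and 78% in ANXA2, but 38.4% in ANXA1, whose window holds no CpG. These matches describe letters in a window and say nothing about binding.

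All 8 annexins were well covered, with 7057 to 197326 counts per library, and together they took 0.408 to 0.595% of the counts of a library. Levels of different genes were set against each other per kilobase of the longest principal transcript in GENCODE 29. On that scale ANXA2 was first, with a median of 1187 CPM per kb over the 6 libraries (794 to 1397), followed by ANXA1 with 519 (367 to 661) and ANXA5 with 332 (62.5 to 532). Then came ANXA4 with 163 CPM per kb (73.2 to 302), ANXA6 with 99.3 (42.2 to 135), ANXA7 with 89.8 (85.5 to 94.3), ANXA3 with 72.6 (53.9 to 97.8) and ANXA11 with 27.8 (22.6 to 31.3). With this length ANXA2 lay above and ANXA11 below all the others, and the ranges of the neighbours in between overlapped. With the union of all annotated exons as the length, a choice made after seeing the data, ANXA1 (251) came before ANXA2 (225), ANXA7 (68.2) was the fourth and ANXA4 (41.4) the sixth, and the ranges of ANXA1 and ANXA2 (178 to 320 and 151 to 265 CPM per kb) and of ANXA3 and ANXA11 (17.4 to 31.6 and 18.5 to 25.6) overlapped. The order, at its top and bottom too, thus depends on the length used. All the levels that follow are CPM of a single gene across libraries, with no division by length.

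**Figure D1:**
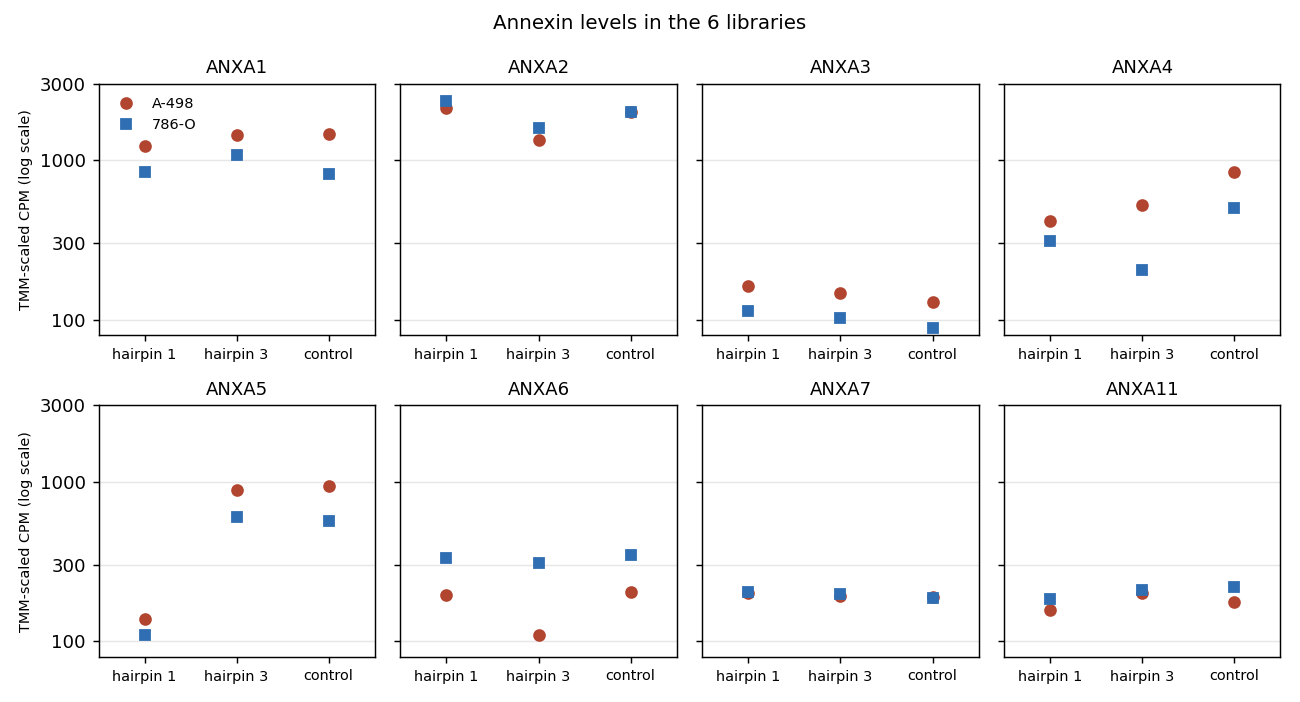
TMM-scaled CPM (log axis) of the 8 annexins in each of the 6 libraries, with A-498 as red circles and 786-O as blue squares, and hairpin 1, hairpin 3 and control from left to right. ANXA5 stands at 139 and 110 CPM with hairpin 1 in A-498 and 786-O, against 565 CPM or more in the other 4 libraries, while ANXA7 stays between 186 and 205 CPM throughout.

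ANXA5, whose labelled protein is widely used to stain phosphatidylserine on dying cells, is the member that led to the choice of the family. In A-498 it stood at 139 CPM with hairpin 1 and 887 CPM with hairpin 3, against 938 CPM in the control. In 786-O the values were 110 CPM with hairpin 1 and 604 CPM with hairpin 3, against 565 CPM in the control. Hairpin 1 thus left 14.8% of the control level in A-498 (95% counting interval 14.5 to 15.1%) and 19.5% in 786-O (19.1 to 19.9%), where the intervals cover counting error only. With hairpin 3 94.5% of the control level was present in A-498 and 107% in 786-O, on either side of the control. The log2 fold change was -2.56 (SE 0.150) with hairpin 1 and 0.01 (SE 0.142) with hairpin 3, and 0.0397% of the 20144 genes that passed a filter on low counts had a lower value with hairpin 1. In libraries of whole cultures, fewer cells expressing a gene and less RNA per cell cannot be told apart.

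The other 7 annexins did not share that pattern at that size. With hairpin 1 edgeR's quasi-likelihood test called 0 of the 7 (2 had an unadjusted p under 0.05, as did 10.5% of all genes), where 0.149% of all genes were called (0.0397% higher, 0.109% lower), and limma-voom also called 0, where it called 0.184% of all genes. DESeq2 called 1, ANXA4, where it called 2.35% of all genes. The log2 fold changes of these 7 with hairpin 1 ran from -0.83 for ANXA4 to 0.34 for ANXA3, with a median of -0.067, against -0.004 over all genes tested. With hairpin 3 edgeR called 1 of the 7, ANXA4, where 6.71% of all genes were called. By edgeR 3 of the 7 had an unadjusted p under 0.05 with hairpin 3, as did 25.8% of all genes. DESeq2 called 2 with hairpin 3, ANXA4 and ANXA2, where it called 13% of all genes, and limma-voom 1, ANXA4, where it called 8.12%. The median with hairpin 3 was 0.060, against -0.010 over all genes. Both hairpins share 1 control library in each line, so the values with hairpin 1 and hairpin 3 are given side by side and were not set against each other through that control.

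**Figure D2:**
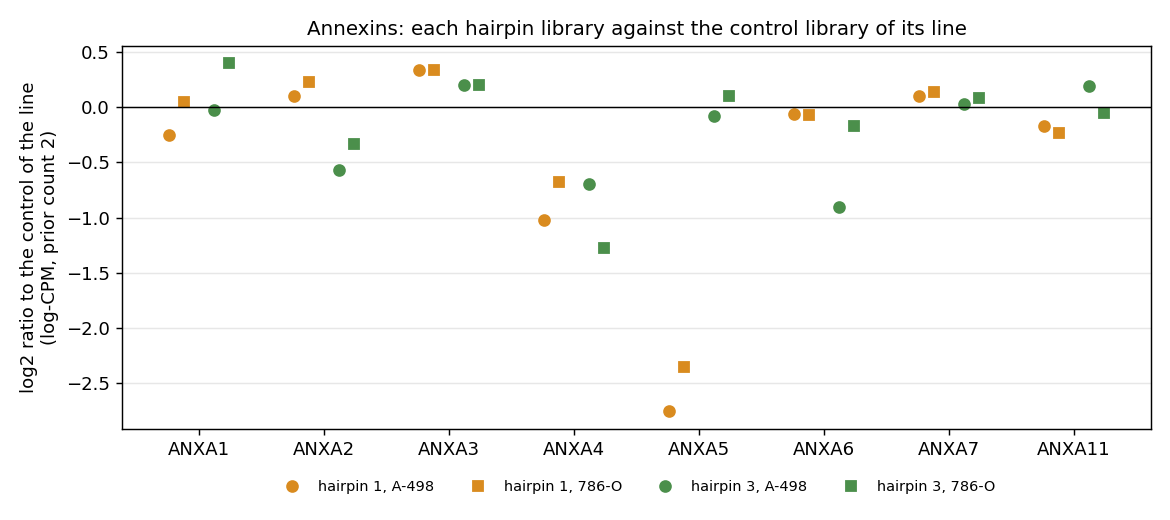
Log2 ratio of each hairpin library to the control library of its own line for the 8 annexins (orange hairpin 1, green hairpin 3, circles A-498, squares 786-O). ANXA5 lies at -2.76 and -2.36 with hairpin 1 and near 0 with hairpin 3, ANXA4 is below 0 in all 4 ratios, and the other annexins lie between -0.91 and 0.40.

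ANXA4, an annexin of secretory and tubular epithelia that forms arrays on membranes, was the second member that stood low. In A-498 it was at 417 CPM with hairpin 1 and 520 CPM with hairpin 3, against 845 CPM in the control. In 786-O it was at 310 CPM with hairpin 1 and 205 CPM with hairpin 3, against 497 CPM in the control. In each line both hairpin libraries lay under the control, but hairpin 1 was the lower in A-498 and hairpin 3 the lower in 786-O. ANXA4 fell with hairpin 3 (log2 fold change -0.97, SE 0.216, edgeR adjusted p = 0.0471), and with hairpin 1 its log2 fold change was -0.83 (SE 0.215, adjusted p = 0.256). The hairpin 3 call lay close to the threshold. Leaving out the control of A-498 or of 786-O ended it. So did keeping only genes of at least 1 CPM on average (adjusted p = 0.067) or dropping the line from the model (adjusted p = 1). Without the 786-O hairpin 3 library the value was -0.59, from the A-498 library alone. With hairpin 1 the adjusted p ranged from 0.0122 to 1 over 13 alternatives, of which 5 called ANXA4 (DESeq2, no filter, 4 libraries alone, and without the hairpin 3 library of A-498 or of 786-O). Between the hairpins its log2 fold change was -0.13 (SE 0.215, adjusted p = 0.73). ANXA4 overlaps AAK1 and a long noncoding RNA on the opposite strand in GENCODE 29, and whether reads were counted by strand is unknown here, so part of its reads could belong to them. In the authors' deposited table, which sets control over all 4 hairpin libraries, ANXA4 is listed at 0.75 on the log2 scale (adjusted p = 0.0769, SE 0.215). Each annexin other than ANXA4 and ANXA5 has an adjusted p of 0.963 or more there. ANXA5 is listed at 0.17, a description that pools hairpin 1, where it was low, with hairpin 3, where it was not.

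ANXA2, which with S100A10 forms a surface complex that binds plasminogen and its activator, was the member tested to differ between the hairpins. In A-498 it stood at 1331 CPM with hairpin 3 and 2118 CPM with hairpin 1, with the control at 1979 CPM. In 786-O it stood at 1590 CPM with hairpin 3 and 2341 CPM with hairpin 1, with the control at 2000 CPM. Hairpin 3 was the lowest and hairpin 1 the highest library in each line. The level with hairpin 3 was lower than with hairpin 1 (log2 fold change -0.61, SE 0.136, edgeR adjusted p = 0.0402), and of the 7 annexins tested ANXA2 was the only one called, where 9.48% of all genes were called (4.09% higher, 5.4% lower). Against the control neither hairpin passed the test, at -0.45 (SE 0.136, adjusted p = 0.0948, but 0.0144 with DESeq2) for hairpin 3 and 0.16 (SE 0.135, adjusted p = 0.755) for hairpin 1 on the log2 scale. The call between the hairpins was lost without the hairpin 1 library of A-498 (adjusted p = 0.155) or 786-O (0.151), without the control of A-498 (0.073) or 786-O (0.0896), in the 4 hairpin libraries alone (0.0994) and with the line left out of the model (adjusted p = 1). ANXA2 has near-identical processed copies elsewhere in the genome. The most abundant, ANXA2P2, was counted at 0.137 to 0.153% of ANXA2 in the 6 libraries, and its log2 fold change was -0.54 with hairpin 3 (adjusted p = 0.173, SE 0.213), with 0.17 for hairpin 1 (adjusted p = 0.837, SE 0.210), so how reads were split between the pair is uncertain.

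ANXA6, an annexin with a duplicated core that binds cholesterol-rich membranes, varied mostly in A-498. There it stood at 196 CPM with hairpin 1 and 109 CPM with hairpin 3, against 205 CPM in the control. In 786-O it stood at 331 CPM with hairpin 1 and 310 CPM with hairpin 3, against 349 CPM in the control. ANXA6 was thus under the control in all 4 hairpin libraries, at 53.4% of it with hairpin 3 in A-498 and at 88.9 to 95.9% in the other 3. It was called with neither hairpin (hairpin 1 -0.07, SE 0.201, adjusted p = 0.943; hairpin 3 -0.52, SE 0.202, adjusted p = 0.165). Without the 786-O hairpin 3 library, where the A-498 one alone stands for the hairpin and is assumed to vary as the others do, the value with hairpin 3 was -0.89 (adjusted p = 0.00874) against the control and -0.82 (0.00864) against hairpin 1, which with all libraries was -0.45 (SE 0.202, adjusted p = 0.201).

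ANXA1, a glucocorticoid-induced inhibitor of inflammation that signals through formyl peptide receptors, lay on opposite sides of the control in the 2 lines. In A-498 it stood at 1224 CPM with hairpin 1 and 1439 CPM with hairpin 3, against 1461 CPM in the control. In 786-O it stood at 836 CPM with hairpin 1 and 1069 CPM with hairpin 3, against 811 CPM in the control. Both hairpin libraries lay under the control in A-498 and above it in 786-O, and hairpin 3 was above hairpin 1 in each line. Neither hairpin passed the test for ANXA1 (hairpin 1 -0.11, SE 0.149, adjusted p = 0.862; hairpin 3 0.19, SE 0.149, adjusted p = 0.485), nor did the hairpins against each other (0.30, SE 0.149, adjusted p = 0.248).

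ANXA3, ANXA7 and ANXA11 passed no test between the constructs. ANXA3, a cytosolic annexin of epithelial and myeloid cells, was at 162 and 148 CPM with hairpins 1 and 3 in A-498, against 128 CPM in the control, and at 113 and 102 CPM in 786-O, against 89.3 CPM in the control. It stood in the same order in each line, hairpin 1 highest and control lowest, but was called with neither hairpin (0.34, SE 0.114, adjusted p = 0.374 with hairpin 1, and 0.20, SE 0.114, adjusted p = 0.318 with hairpin 3). ANXA7, also called synexin for its part in granule fusion, ranged from 186 to 205 CPM, with the control the lowest library in each line. Its log2 fold changes were 0.12 for hairpin 1 (SE 0.116, adjusted p = 0.787) and 0.06 for hairpin 3 (SE 0.116, adjusted p = 0.793). ANXA7 overlaps an antisense gene, so part of its reads could come from there. ANXA11, which tethers RNA granules to lysosomes, was at 157 CPM with hairpin 1 and 201 CPM with hairpin 3 in A-498, against 176 CPM in the control. In 786-O it was at 185 CPM with hairpin 1 and 210 CPM with hairpin 3, against 218 CPM in the control. Hairpin 1 was the lowest library of each line for ANXA11, and no comparison passed (-0.20, SE 0.125, adjusted p = 0.65 with hairpin 1, 0.07, SE 0.125, adjusted p = 0.766 with hairpin 3, and 0.27, SE 0.125, adjusted p = 0.213 between the hairpins).

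Of the 7 annexins other than ANXA5, 2 (ANXA4 and ANXA6) were lower than the control of their line in all 4 hairpin libraries, against 14% of all genes tested. Another 2 (ANXA3 and ANXA7) were higher in all 4, against 13.1% of all genes. ANXA5 was not counted, since its values with both hairpins chose the family. Hairpin 3 put it at 107% of the control in 786-O.

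A-498 was compared with 786-O over the 3 constructs for the 7 annexins other than ANXA5. ANXA1, ANXA3 and ANXA4 were higher in A-498 and ANXA6 was lower, so that 3 of 7 were called higher, against 32.1% of all genes, and 1 of 7 lower, against 29.7% (61.9% of all genes in either direction). ANXA4 had the largest positive value (log2 fold change 0.85, SE 0.177, edgeR adjusted p = 0.00533) and ANXA6 the only negative call (-1.01, SE 0.166, adjusted p = 0.00188). The libraries of ANXA4 overlapped, with 417 to 845 CPM in A-498 and 205 to 497 CPM in 786-O. Its ratio was 1.34 with hairpin 1, 2.54 with hairpin 3 and 1.70 in the control. For ANXA6 the 3 libraries of A-498 spanned 109 to 205 CPM and those of 786-O 310 to 349 CPM, without overlap. ANXA1 (0.61, SE 0.122, adjusted p = 0.00443) and ANXA3 (0.52, SE 0.0933, adjusted p = 0.00263) did not overlap either, with 1224 to 1461 CPM in A-498 and 811 to 1069 CPM in 786-O for ANXA1. All 3 libraries of A-498 lay above all 3 of 786-O for 31.1% of all genes, and below them for 28%. ANXA3 was 1.43 to 1.44 times as high in A-498 as in 786-O with every construct, the steadiest ratio of the family. For ANXA6 the ratio was 0.593 with hairpin 1 and 0.353 with hairpin 3, against 0.587 in the control.

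ANXA5 is given here too as a description, since its values in these libraries chose the family. It had the higher level in A-498 within each construct, at 139 CPM against 110 CPM with hairpin 1, 887 against 604 with hairpin 3 and 938 against 565 in the control (log2 fold change 0.54, SE 0.116), although the libraries of the lines overlapped. ANXA2 (-0.14, SE 0.111, adjusted p = 0.308), ANXA7 (-0.01, SE 0.0946, adjusted p = 0.924) and ANXA11 (-0.20, SE 0.102, adjusted p = 0.126) were not called between the lines, and their libraries overlapped. Without the 786-O hairpin 3 library ANXA11 was called (-0.30, adjusted p = 0.0425). The direction for ANXA7 turned with only genes of at least 1 CPM on average (0.07, adjusted p = 0.481).

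**Figure D3:**
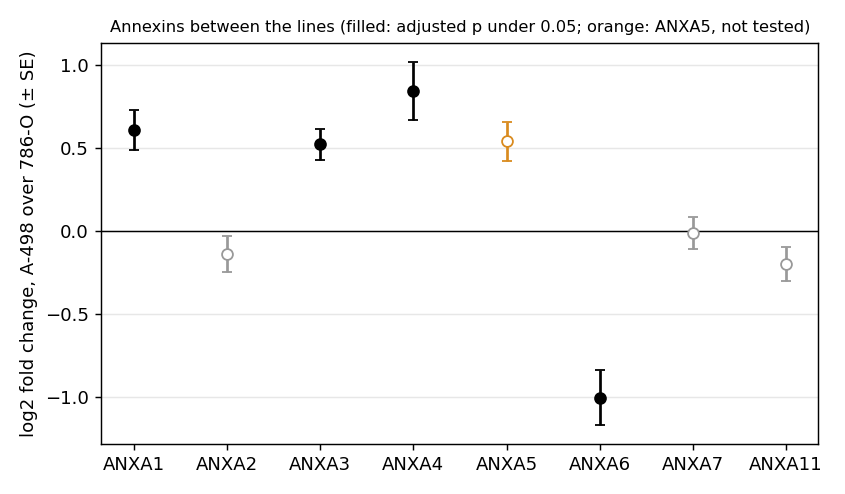
Log2 fold change of A-498 over 786-O with its standard error for the 8 annexins, from the model with line and construct (filled symbols, adjusted p under 0.05; orange, ANXA5, not tested). ANXA1, ANXA3 and ANXA4 lie between 0.52 and 0.85, ANXA5 at 0.54, ANXA6 at -1.01, and ANXA2, ANXA7 and ANXA11 between -0.20 and -0.01.

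Genes that work with annexins were counted from 7 lists of 66 gene symbols, of which 61 are in the table and 55 passed the filter on low counts. With hairpin 1 edgeR and limma-voom called 0 of the 55, where they called 0.149% and 0.184% of all genes. An unadjusted p under 0.05 was seen for 11 and 10 of the 55, and for 10.5% and 11.2% of all genes. DESeq2 called 2, where it called 2.35% of all genes: the repair ATPase EHD1 and the receptor kinase AXL. With hairpin 3 edgeR called 3 higher, against 2.55% of all genes, and 2 lower, against 4.16%, while DESeq2 called 12, where it called 13% of all genes, and limma-voom 5, where it called 8.12%. Among the other annexin genes, 7 of 10 passed the filter and edgeR called 0 with either hairpin, against 0.149% and 6.71% of all genes. By edgeR 1 had an unadjusted p under 0.05 with hairpin 1 and 3 with hairpin 3, against 10.5% and 25.8% of all genes. DESeq2 called 1 of these annexin genes with hairpin 3, ANXA10, where it called 13% of all genes. Between the hairpins edgeR called 1 of the 7, ANXA10 (-1.77, SE 0.330, adjusted p = 0.0259), where 9.48% of all genes were called. DESeq2 called ANXA10 and ANXA2P2 there (14.8% of all genes), and limma-voom ANXA10 (11.5%). ANXA10 stood at 3.83 CPM with hairpin 1 and 1.57 CPM with hairpin 3 in A-498, and at 1.455 and 0.253 CPM in 786-O. The median log2 fold change of the 7 against the control was 0.09 with hairpin 1 and -0.59 with hairpin 3. The gene with the highest mean over the 6 libraries, ANXA2P2, did not exceed 3.45 CPM. In single libraries the annexins outside the 8 reached at most 4.27 CPM, in ANXA9.

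Of the EF-hand partners, edgeR, DESeq2 and limma-voom called 0 of 7 measured with either hairpin. Over all genes these tools called 0.149%, 2.35% and 0.184% with hairpin 1, and 6.71%, 13% and 8.12% with hairpin 3. By edgeR 0 of the partners had an unadjusted p under 0.05, against 10.5% of all genes with hairpin 1 and 25.8% with hairpin 3. Their median was -0.09 with hairpin 1 and 0.21 with hairpin 3. The most abundant was S100A6, a partner of ANXA11, at 580 CPM with hairpin 1 and 1127 CPM with hairpin 3 in A-498, against 732 CPM in the control, and at 745 CPM with hairpin 1 and 749 CPM with hairpin 3 in 786-O, against 821 CPM in the control. Hairpin 3 was the highest library of A-498 and the control that of 786-O. The log2 fold change of S100A6 was -0.23 with hairpin 1 (adjusted p = 0.793, SE 0.227) but 0.27 with hairpin 3 (adjusted p = 0.511, SE 0.228). Without the 786-O hairpin 3 library the latter was 0.69, from the A-498 library alone. S100A10, the partner of ANXA2, and S100A11, the partner of ANXA1, were named after their values were seen. S100A10 had a log2 fold change of 0.31 with hairpin 3 (SE 0.131, adjusted p = 0.198), where that of ANXA2 was -0.45, and S100A11 of 0.21 (SE 0.139, adjusted p = 0.407).

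In membrane repair edgeR called 1 of 15 genes higher and 1 lower with hairpin 3, against 2.55% and 4.16% of all genes, around a list median of 0.07, with -0.05 for hairpin 1. limma-voom called the same 2, where it called 8.12% of all genes. DESeq2 called these and 4 more with hairpin 3 (AHNAK, DYSF, VPS4A and CHMP3), 6 of 15 against 13% of all genes. With hairpin 1 DESeq2 called EHD1, where it called 2.35% of all genes. EHD1 rose (0.94, SE 0.121, edgeR adjusted p = 0.0144), with 147 CPM against 79.8 CPM in the control of A-498 and 150 against 75.1 CPM in 786-O. The caveola scaffold CAV1 fell (-1.30, SE 0.192, adjusted p = 0.0175), with 215 CPM against 595 CPM in the control of A-498 and 369 against 794 CPM in 786-O. The call of EHD1 was lost without the control of A-498 (0.0982) or of 786-O (0.087), that of CAV1 without the control of A-498 (0.0946). AHNAK, a large scaffold recruited by ANXA2 and S100A10 and the most abundant of the list, was not called by edgeR (-0.45, SE 0.129, adjusted p = 0.0856 with hairpin 3), though DESeq2 called it (adjusted p = 0.00717).

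Of 8 measured genes for phosphatidylserine exposure, edgeR and DESeq2 called 0 with either hairpin. Over all genes these tools called 0.149% and 2.35% with hairpin 1, and 6.71% and 13% with hairpin 3. By edgeR 4 of the 8 had an unadjusted p under 0.05 with hairpin 1 and 3 with hairpin 3, against 10.5% and 25.8% of all genes. With hairpin 3 limma-voom called 1, the flippase gene ATP8A1, where it called 8.12% of all genes. The median of this list was -0.30 with hairpin 1 and 0.12 with hairpin 3. The most abundant was TMEM30A, the shared subunit of the flippases that keep phosphatidylserine inside (-0.48, SE 0.187, adjusted p = 0.442 with hairpin 1 and -0.36, SE 0.188, adjusted p = 0.29 with hairpin 3). In 786-O it stood at 309 CPM with hairpin 3, against 306 CPM in the control. Without that hairpin 3 library the value was -0.65, from the A-498 library alone. Among 10 genes whose products bind phosphatidylserine or take up dying cells, edgeR and limma-voom called 2 with hairpin 3, AXL and MERTK, against 6.71% and 8.12% of all genes. DESeq2 called 5 with hairpin 3, against 13% of all genes, adding EDIL3, MFGE8 and GAS6. With hairpin 1 DESeq2 called AXL, where it called 2.35% of all genes. AXL rose with hairpin 3 (0.95, SE 0.154, adjusted p = 0.022), at 392 CPM against 176 CPM in the control of A-498 and 689 against 405 CPM in 786-O. The related kinase MERTK fell (-1.76, SE 0.214, adjusted p = 0.0136), with 2.04 CPM against 6.41 CPM in A-498 and 1.15 against 4.17 CPM in 786-O. AXL and MERTK thus went opposite ways with hairpin 3, while the third kinase of their family, TYRO3, was not called (0.21, SE 0.222, adjusted p = 0.603). The list median with hairpin 3 was -0.49, with -0.01 for hairpin 1. With hairpin 1 AXL was at 0.70 (SE 0.153, adjusted p = 0.196) and MERTK at -0.01 (SE 0.202, adjusted p = 0.996) on the log2 scale. AXL was called with hairpin 1 without the hairpin 3 library of A-498 (0.0459) or of 786-O (0.0342). Without the control of A-498 both calls with hairpin 3 were lost (0.196 for AXL, 0.0565 for MERTK), and that of MERTK also without the control of 786-O (0.0806).

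In the plasminogen system, which ANXA2 serves, 1 of 5 measured genes was called higher with hairpin 3 by edgeR and 0 lower, against 2.55% and 4.16% of all genes, with a list median of 0.06, and 0.41 for hairpin 1. DESeq2 and limma-voom called 0 of the 5 with either hairpin. Over all genes they called 2.35% and 0.184% with hairpin 1, and 13% and 8.12% with hairpin 3. By edgeR 3 of the 5 had an unadjusted p under 0.05 with each hairpin, against 10.5% of all genes with hairpin 1 and 25.8% with hairpin 3. The most abundant of them was PLAUR, the receptor that holds urokinase at the cell surface. It stood at 55.5 CPM with hairpin 1 and 49.9 CPM with hairpin 3 in A-498, against 44.3 CPM in the control, and at 44.1 CPM with hairpin 1 and 72.9 CPM with hairpin 3 in 786-O, against 37.8 CPM in the control. The control was the lowest library of each line, but PLAUR was called with neither hairpin (0.28, SE 0.216, adjusted p = 0.728 for hairpin 1, and 0.58, SE 0.217, adjusted p = 0.153 for hairpin 3). Without the A-498 hairpin 3 library its value with hairpin 3 was 0.96, from the 786-O library alone. SERPINB2, an inhibitor of plasminogen activators, was the gene called higher with hairpin 3 (adjusted p = 0.0173) on very few reads. It had 67 counts with hairpin 3, 18 with hairpin 1 and 0 in the control in 786-O, at least 23.5-fold and 6.06-fold higher than a control of 3 counts, and 1 count or 0 in each A-498 library. The SERPINB2 call was lost without the control of 786-O (0.723) and with limma-voom (0.0572), and DESeq2 gave it no adjusted p. On the receptor side of ANXA1, edgeR, DESeq2 and limma-voom called 0 of 3 measured genes with either hairpin. Over all genes these tools called 0.149%, 2.35% and 0.184% with hairpin 1, and 6.71%, 13% and 8.12% with hairpin 3. By edgeR 1 of the 3 had an unadjusted p under 0.05, with hairpin 3, as did 25.8% of all genes. The list median was 0.32 with hairpin 1 and -0.90 with hairpin 3. The most abundant, the phospholipase PLA2G4A, had -0.30 with hairpin 3 (SE 0.413, adjusted p = 0.694).

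**Figure D4:**
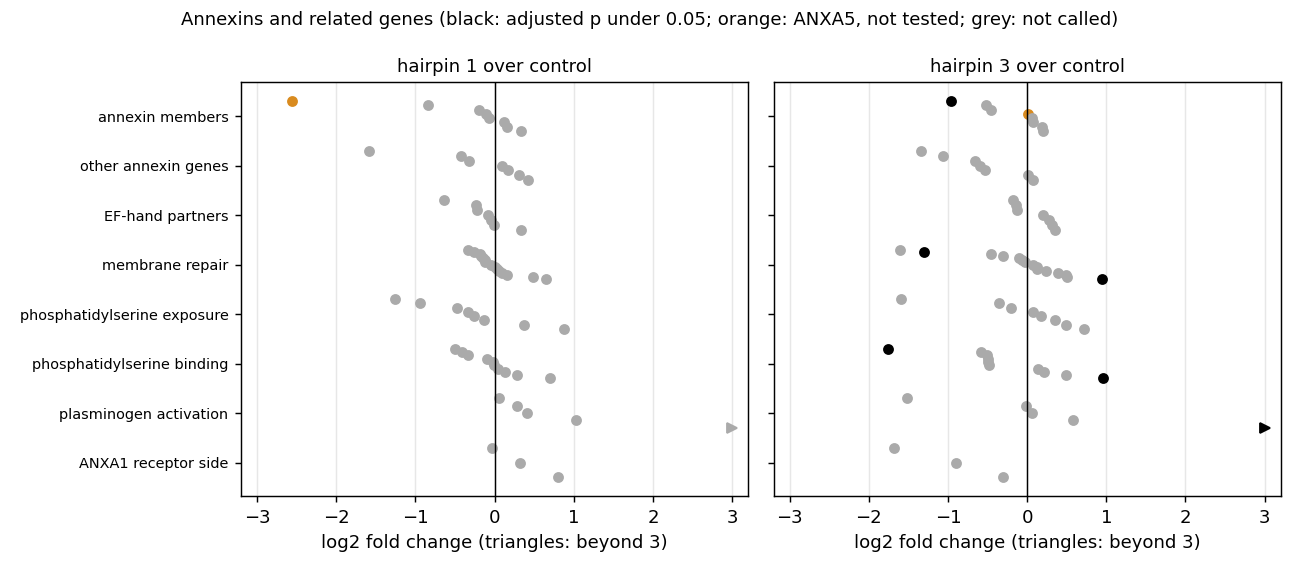
Log2 fold change against the control of the annexins and of the tested genes of the 7 related lists, with hairpin 1 on the left and hairpin 3 on the right (black, adjusted p under 0.05; orange, ANXA5, not tested; grey, not called). ANXA5 lies apart from the other annexins with hairpin 1, and the black points with hairpin 3 are ANXA4, CAV1, EHD1, MERTK, AXL and SERPINB2, the last as a triangle beyond the axis.

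The genes most like ANXA5 were found by the distance between their 4 log2 ratios to the control and those of ANXA5, over the 11026 genes that averaged 5 CPM or more. The 5 nearest were the clathrin adaptor gene AP1M1 (distance 1.01), the peroxidase gene PXDN (1.11), the ubiquitin ligase gene PELI1 (1.22), the homeobox gene BARX2 (1.25) and CLPTM1L (1.27). AP1M1 stood at 13.8 CPM with hairpin 1 and 68.7 with hairpin 3, against 60.2 CPM in the control of A-498, and at 31.6 and 151 CPM, against 106 CPM in 786-O. CLPTM1L stood at 82.2 and 284 CPM, against 346 CPM in A-498, and at 79.8 and 257 CPM, against 201 CPM in 786-O. In each of these 5 genes hairpin 1 was the lowest library of both lines. These genes were chosen for that likeness, so it is a description. By Pearson correlation of log-CPM over the 6 libraries, 1 of the 5 nearest genes was the same, CLPTM1L (r = 0.99). Among the annexins ANXA4 was the nearest to ANXA5, at rank 253 (distance 2.85), followed by ANXA11 at rank 1805, and ANXA3 was the farthest, at rank 9736.

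**Figure D5:**
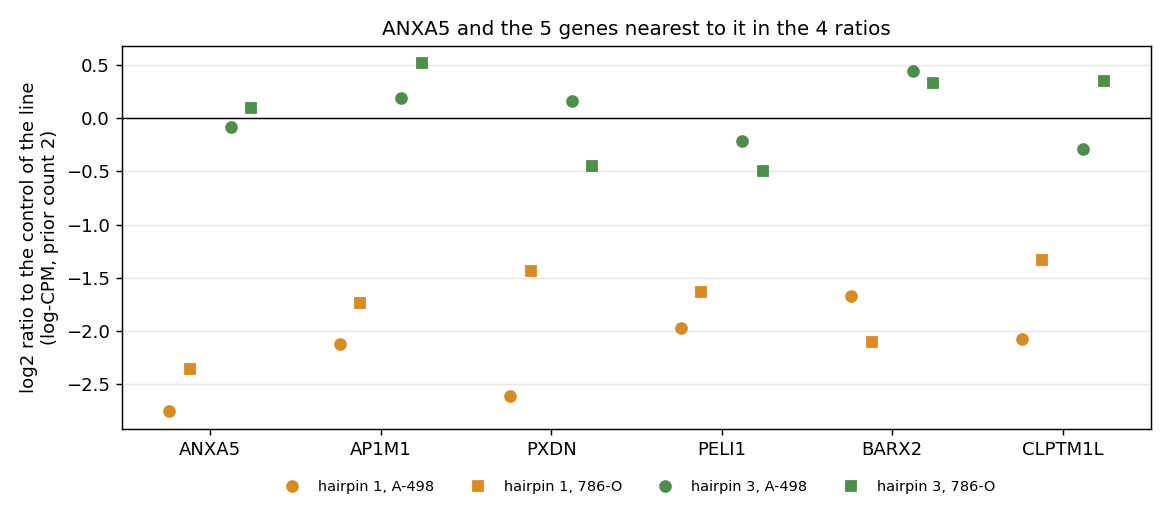
Log2 ratio of each hairpin library to the control of its line for ANXA5 and the 5 genes nearest to it (orange hairpin 1, green hairpin 3, circles A-498, squares 786-O). All 6 genes lie between -2.76 and -1.33 with hairpin 1 and between -0.49 and 0.52 with hairpin 3.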

How the data were processed

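Per the submitters' processing notes, STAR and DESeq2 were used with hg19 and hs37d5, with no versions; for the counting tool, annotation and strand setting, nothing is given in the sources used here. The authors deposited whole-number counts per gene symbol for 6 libraries, without normalization. The table also holds, per the file headers, the authors' mean normalized signal, DESeq2's log2 fold change (control over knockdown, read from its sign), its standard error and Wald score, and p-values. Unlisted number columns came to 0.

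The counts went into edgeR 4.0.16 (R 4.3.3, two-sided quasi-likelihood F tests, TMM scaling, line and construct as terms, 2 residual degrees of freedom) on 20144 genes that passed filterByExpr over knockdown status, with Benjamini-Hochberg adjustment over all of them and a call under 0.05. The F statistic gave the standard errors. The p-values thus rest on how far the lines differ in their response to a construct. That spread was moderated for each gene towards that of all genes, so the 2 lines alone do not set a gene's standard error. The replicate number stands for the cell line, so same-numbered libraries are paired by line. Log ratios used a prior count of 2. DESeq2 1.42.0 and limma 3.58.1 were alternatives. The fits were also run on data simulated from their own model. That checks the recovery of set fold changes and cannot show how reliable the calls in these libraries are. No label gives a batch. With 7057 counts or more, counting error is small beside the differences between libraries.

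The members and lists were chosen with earlier results of these data known. Named genes were the 8 members, each list gene called with either hairpin, the most abundant gene of each list and the 5 genes nearest to ANXA5. Lengths came from GENCODE 29 and promoters from RefSeq, where all 8 members matched. No hairpin sequence was used here, and 1 related gene is not reported here.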

Additional observations from a re-analysis of the deposited data

Results flagged for a closer look

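ANXA1 lay under the control with both hairpins in A-498 (mean log2 ratio -0.138) and above it with both in 786-O (0.221), a difference of -0.359 between A-498 and 786-O. It lay close to the control with hairpin 3 in A-498 (log2 ratio -0.021) and hairpin 1 in 786-O (0.044). The other hairpin gave -0.255 in A-498 and 0.398 in 786-O. ANXA1 drew attention because every hairpin library of A-498 moved one way and every one of 786-O the other. The same held for 8.35% of all genes tested, and the difference was not tested, since each line has 1 control library.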

How the results depend on the processing

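Counts of called genes changed with the settings, and the cause was not tested. Of the 7 annexins other than ANXA5, 0 were called with hairpin 1, 1 with hairpin 3 and 1 between the hairpins. DESeq2 and no filter each gave 1 with hairpin 1 and 2 with hairpin 3, the 1 CPM filter gave 0 with hairpin 3, and the 4 libraries of the constructs compared gave 1 with hairpin 1 and 0 between the hairpins. With the replicate block (the line) left out, 0 were called with hairpin 3 and 0 between the hairpins, and 0 of all genes in each hairpin comparison. Leaving out 1 library gave 0 to 1, 0 to 2 and 0 to 2 annexins, and 4 to 5 of 7 between the lines (4 with all libraries). Over all genes the 30 calls with hairpin 1 became 474 with DESeq2, 478 with no filter, 13 with the 1 CPM filter and 524 in the 4 libraries. The 1351 with hairpin 3 became 2623 with DESeq2 and 2654 with no filter. The 1910 between the hairpins became 2990, 3117 and, in the 4 libraries, 1169. Leaving out 1 library gave 0 to 608, 121 to 2337 and 249 to 3312, each fit having 1 residual degree of freedom. Between the lines the 12460 calls ranged from 9923 to 12366. Directions turned only among values that had not been called. MERTK with hairpin 1 was 0.0218 with limma-voom and 0.0462 without the block, PLA2G4A with hairpin 1 was -0.11 without the block, and ANXA7 between the lines was 0.0701 with the 1 CPM filter. Without 1 library, hairpin 1 gave ANXA1 -0.27 to 0.0556, ANXA6 -0.27 to 0.11, CAV1 -0.48 to 0.11, S100A6 -0.54 to 0.0356, MERTK -0.19 to 0.16 and PLA2G4A -0.24 to 1.4. Hairpin 3 gave ANXA11 -0.0493 to 0.20, S100A6 -0.20 to 0.69 and PLA2G4A -1.54 to 0.0140. ANXA4 between the hairpins ranged from -0.53 to 0.26 and ANXA7 between the lines from -0.0280 to 0.0044. Pearson correlation kept 1 of the 5 genes most like ANXA5. DESeq2 gave no adjusted p for 2 values of SERPINB2.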
